A study of Mus musculus with 6 samples.

Results

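The human growth hormone locus genes GH1, GH2 and CSHL1 were followed in RNA sequencing of pancreatic islets. They were picked by name from the 13702 genes of the deposited table, and all 3 were listed there. The KO group (3 libraries) came from islets of mice that lack pyruvate carboxylase in their β-cells, and the WT group (3 libraries) from islets of wild-type littermates. All animals were 12 weeks old. The promoter that drove the β-cell deletion, the alleles behind it and any pooling of animals are not given in the labels used here. The genes were chosen because their raw counts differed between WT and KO libraries, so those counts and the shares computed from them are described below without a test.

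Growth hormone is a secreted peptide of the pituitary that binds the growth hormone receptor. The human form also binds the prolactin receptor, and in β-cells signalling through that receptor is known from pregnancy, when it raises β-cell number and insulin output. In humans GH1 encodes the pituitary hormone, GH2 the placental variant, and CSHL1 a chorionic somatomammotropin-like gene of the same cluster. The cluster arose by duplication in primates, and its members share most of their sequence, so the division of reads among them is uncertain. The mouse has a single growth hormone gene, Gh, which the RefSeq annotation of GRCm38 places at chr11:106300261-106303703 with Gh1 among its synonyms. As further background, several Cre transgenes driven by an insulin promoter carry a human growth hormone minigene as part of the construct. Whether the KO mice carried one was not tested.

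The identifiers in the table are human, although the libraries are labelled mouse, and 0 of the 13702 are in the mouse gene table used here. The sources used here do not say by which route reads reached human names, and each value is the number of reads given to such a name. No coordinates or sequences of the members are printed, since only a mouse reference was at hand. WT replicates 1, 2 and 3 held 35906, 377876 and 135441 counts in all, and the KO libraries 224898 to 225561. On the CPM scale, which sets every library to the same total, 1 count was worth 27.9 in WT replicate 1 and 2.65 in WT replicate 2. Squamous epithelium markers took 18.2% of counts in WT replicate 2, led by KRT13 and KRT4, against 0.0267% to 0.104% in the other 5 libraries. Connective tissue markers took 1.23% in WT replicate 3, where COL12A1 had 522 counts, against 0.0685% to 0.350% elsewhere. The KO libraries were close to one another: for genes whose counts in a pair summed to 20 or more, the chi-square per degree of freedom was 1.96 to 2.02 for KO pairs and 16.5 to 35.1 for WT pairs, where sampling noise gives 1. Whether each library stands for its own animal is not stated, and the p-values below therefore measure the spread between these libraries alone.

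GH1 (ENSG00000259384) was the most abundant gene by count in each KO library and had few counts in each WT library. Its counts were 7285, 7123 and 7132 in KO replicates 1, 2 and 3, and 7, 6 and 5 in WT replicates 1, 2 and 3. Every KO library was far above every WT library. By count it ranked 1 in all 3 KO libraries, and 841, 6251 and 4056 in WT replicates 1, 2 and 3. In those WT libraries 3294, 12193 and 8298 genes had a count. The gene next below it by summed KO count was EIF4G2, a translation initiation factor gene, with 18084 counts against 21540 for GH1. These ranks compare counts that are not corrected for gene length.

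**Figure D1:**
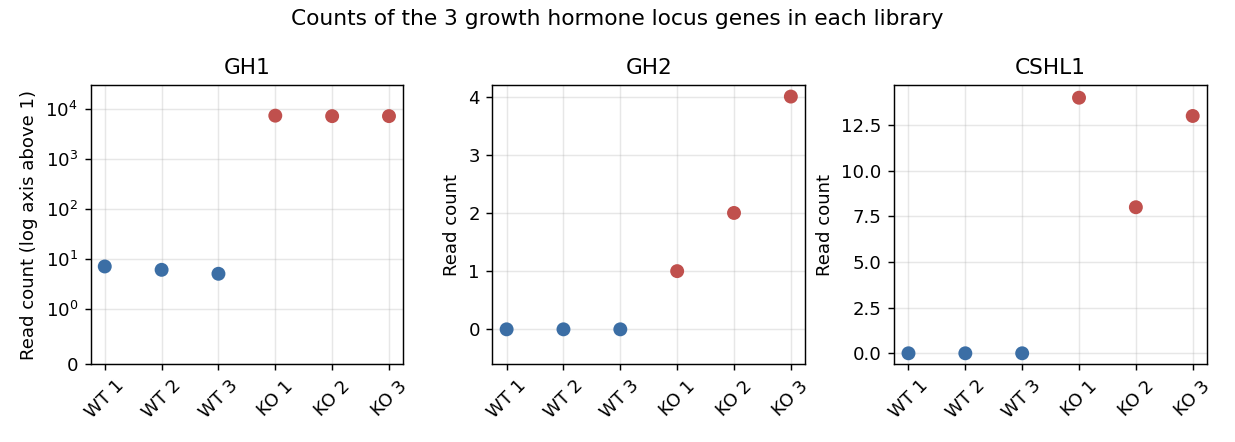
Read counts of GH1, GH2 and CSHL1 in the 6 libraries, WT in blue and KO in red, with 1 point per library and a log axis above 1 for GH1. GH1 sits at 5 to 7 counts in WT and at 7123 to 7285 in KO, while GH2 and CSHL1 are at 0 in WT and reach at most 4 and 14 counts in KO.

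As a share of all counts, GH1 took 3.23% (95% interval 3.16 to 3.30), 3.16% (3.09 to 3.24) and 3.17% (3.10 to 3.24) in KO replicates 1, 2 and 3. The KO mean was 3.19% ± 0.0358 (SD, n = 3). In WT it took 0.0195% (0.00784 to 0.0402), 0.00159% (0.000583 to 0.00346) and 0.00369% (0.00120 to 0.00861) in replicates 1, 2 and 3. The intervals are exact Clopper-Pearson intervals, which cover counting error only. WT replicate 1, the library with the fewest reads, had the highest WT share, and its interval did not overlap that of WT replicate 2.

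The 3 WT libraries held nearly equal numbers of GH1 counts although their depths differed. WT replicates 2 and 3 were 10.5 and 3.77 times as deep as replicate 1. At the share seen in WT replicate 1, they would have held 73.7 and 26.4 GH1 counts in place of 6 and 5. EIF4G2 behaved alike, with 1323, 1323 and 1268 counts in WT replicates 1, 2 and 3, and so did the RNA helicase gene DDX5, with 659, 657 and 676. Of 25 islet endocrine markers 16 were listed. All 16 had a count in WT and 11 had one in KO. Over all genes, WT replicate 2 had a count for 12193, and KO replicates 1, 2 and 3 for 7617, 7676 and 7670. CHGA, CHGB, ABCC8, PCSK1 and PPY were at 0 in every KO library. Summed over WT they had 1, 1, 1, 6 and 1 counts, so no loss in KO is read from them. The list, led by the transcription factor genes PAX6 and INSM1, took 0.699%, 0.0310% and 0.111% of counts in WT replicates 1, 2 and 3. Its KO range was 0.479% to 0.529%. The part of tissue make-up in the unequal WT shares of GH1 was not tested.

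The spread of GH1 within each genotype was small in raw counts. In KO the coefficient of variation was 1.27%, beside the 1.18% that counting noise alone gives at that depth. In WT it was 16.7%, beside 40.8% from counting noise at equal depth. The WT libraries differed in depth, so that comparison does not measure the spread of the GH1 level in WT. Relative to library totals the WT mean was 82.6 ± 97.9 CPM (SD, n = 3).

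The size of the difference depended on the WT library and the scaling, and its direction did not in any setting tried. Relative to library totals, the KO libraries stood 162 to 166 times above WT replicate 1, 1993 to 2034 times above WT replicate 2 and 857 to 875 times above WT replicate 3. On library sizes scaled by the trimmed mean of M-values (TMM), GH1 stood at 30642, 29705 and 29832 CPM in KO and at 180, 24.0 and 31.6 CPM in WT. The means were 30060 ± 509 CPM in KO and 78.6 ± 88.0 CPM in WT (SD, n = 3 each), a ratio of 383. The WT standard deviation was larger than the WT mean, so the ratio of means rests mainly on WT replicate 1.

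Counted against EIF4G2 and DDX5 in the same library, GH1 had 3.53, 3.03 and 2.57 counts per 1000 counts of the pair in WT replicates 1, 2 and 3. In KO it had 786, 751 and 771. The means were 3.04 ± 0.480 and 770 ± 17.4 (SD, n = 3 each), a ratio of 253. On this scale the WT libraries lay closest together and the groups again did not overlap. These 2 genes were chosen for scaling with their counts in these libraries known.

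**Figure D2:**
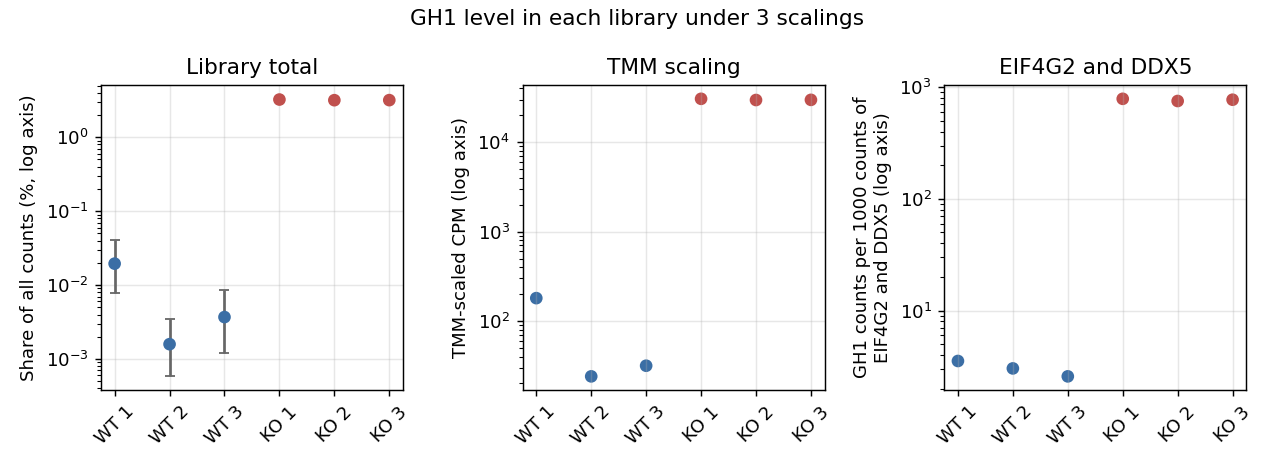
GH1 in each library as a share of all counts with exact 95% intervals (left), as TMM-scaled CPM (middle) and per 1000 counts of EIF4G2 and DDX5 (right), on log axes, WT in blue and KO in red. The WT libraries spread from 24.0 to 180 CPM on TMM sizes but from 2.57 to 3.53 on the EIF4G2 and DDX5 scale.

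The 2 other members were detected only in KO libraries, at low counts. CSHL1 (ENSG00000204414) had 14, 8 and 13 counts in KO replicates 1, 2 and 3 and 0 in each WT library. Its 35 KO counts correspond to 51.8 CPM (36.1 to 72.1) of the pooled KO total of 675533. The 0 of 549223 pooled WT counts allow up to 5.46 CPM, a floor of 3 counts. The exact interval used for KO ends at 6.72 CPM in pooled WT. The lower end of the KO interval is 6.61 times the floor of 5.46 CPM. CSHL1 was chosen on these counts, and the pooled WT libraries differed by more than sampling noise. This ratio therefore describes the counts and is no test. The pooled WT total is mostly WT replicate 2. Without that library the floor is 17.5 CPM, and the lower end of the KO interval is 2.06 times as high. For WT replicate 1 alone the floor is 83.6 CPM, which is above the KO level. The 0 in that library therefore says nothing of a difference.

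GH2 (ENSG00000136487) had 1, 2 and 4 counts in KO replicates 1, 2 and 3 and 0 in each WT library. The 7 KO counts correspond to 10.4 CPM (4.17 to 21.4). The lower end of that interval lies below the pooled WT floor of 5.46 CPM, and no difference is read from these counts.

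Within the family GH1 held almost all reads. In KO replicates 1, 2 and 3 it had 99.8%, 99.9% and 99.8% of the 7300, 7133 and 7149 family counts. Over the 3 KO libraries CSHL1 had 0.162% (95% interval 0.113 to 0.225) and GH2 0.0324% (0.0130 to 0.0668) of 21582 family counts. The pooled intervals of CSHL1 and GH2 did not overlap, with 5 CSHL1 counts for each GH2 count. By library, CSHL1 had 0.192%, 0.112% and 0.182% and GH2 0.0137%, 0.0280% and 0.0560%, and for each gene the intervals of the 3 libraries overlapped.

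The WT libraries could not show whether the family was divided in the same way there. All 18 WT family counts were on GH1. At the KO ratio to GH1, 18 GH1 counts go with 0.0292 counts of CSHL1 and 0.00585 of GH2, so a 0 for both says nothing of their proportion in WT.

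Of the 3 members, 1 (GH1) passed the filter on low counts that preceded the fit across all genes. In that fit its log2 fold change, KO minus WT, was 8.85 ± 1.79 (SE), the highest of the 2560 genes that passed. CPEB1, the gene of an RNA-binding translation regulator, came next at 8.61, followed by the neurofilament gene NEFM at 8.28. Both had 0 counts in every WT library, so their fitted values depend on the added prior count. GH1 had every KO library above every WT library, as did 22.6% of the 2560 genes tested. The members were chosen on this contrast, and GH1 passed the filter through its KO counts. Nothing is therefore read from its rank, its SE or that share.

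**Figure D3:**
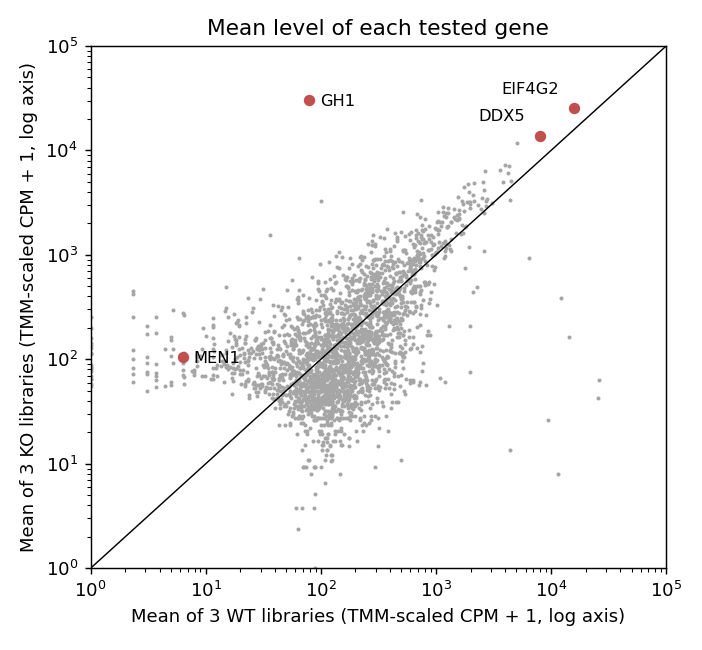
Mean TMM-scaled CPM + 1 of each of the 2560 tested genes in WT (x) and KO (y) on log axes, with the line of equal level. GH1 lies at 78.6 CPM in WT and 30060 CPM in KO, at the level of EIF4G2 on the KO axis and far from it on the WT axis.

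Other genes had a similar pattern over the 6 libraries, at lower counts in KO and with far smaller rises. GH1 had 7, 6 and 5 counts in WT and 7285, 7123 and 7132 in KO. Correlation does not measure the size of a change, and the counts below are not scaled for depth. By Pearson correlation of log2(CPM + 1), the genes most like GH1 were MARCKS (0.998), KIAA1199 (0.998), AKIRIN1 (0.997), SLC23A2 (0.997), RPS27 (0.995) and TAB2 (0.994). MARCKS, which encodes an actin-binding substrate of protein kinase C, had 9, 46 and 29 counts in WT and 101, 107 and 109 in KO. SLC23A2, which encodes a vitamin C transporter, had 1, 3 and 2 counts in WT and 56, 59 and 78 in KO. RPS27, a ribosomal protein gene whose counts are uncertain because it has pseudogene copies, had 39, 141 and 100 in WT and 534, 543 and 556 in KO. Of 2559 genes compared, 14 had a correlation above 0.99 and 184 above 0.9. These values share the same 6 libraries and scaling, and 3 KO libraries that lie close together, so they describe the likeness and no more.

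Genes that flank the cluster in the human genome gave calls that depended on WT replicate 1, as calls over all genes did. Of 14 such neighbours 11 were in the table, 3 passed the filter, and 0 passed an adjusted p of 0.05 in edgeR's quasi-likelihood test. Over all tested genes 8.05% did. At an unadjusted p under 0.05 the count was 1 (PSMC5), beside 28.5% of all tested genes, and DESeq2 also called 1, beside 17.7% of its 2529 genes. Without WT replicate 1, edgeR called 3 of the 5 neighbours then tested, beside 46.6% of the 3279 genes in that fit: CCDC47 higher in KO (adjusted p 0.0119), and MAP3K3 and TEX2 lower (adjusted p 0.0165 and 0.0137). CCDC47, which encodes a protein of the endoplasmic reticulum membrane, was covered by 13, 75 and 30 WT reads and 117, 118 and 138 KO reads, a log2 fold change of 0.94 ± 0.47 (SE) with an edgeR adjusted p of 0.217. PSMC5, a proteasome subunit gene, had 9, 22 and 7 WT reads and 6, 5 and 6 KO reads, with a log2 fold change of −2.13 ± 0.75 (SE) and an edgeR adjusted p of 0.104. DDX42, an RNA helicase gene, had 11, 67 and 22 WT reads and 42, 30 and 41 KO reads. MAP3K3, TEX2 and SMARCD2 had 17, 39 and 26 counts in WT replicate 2 and at most 5 in any KO library. CD79B and SCN4A, which lie beside GH1 in the human genome, are not listed and have no value here.

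Genes that control hormone release in the pituitary were near 0. Of 10 such genes 3 were listed and none (0) was deep enough to be tested. SSTR2, a somatostatin receptor gene, had 0, 1 and 0 counts in WT and 9, 8 and 2 in KO. The single count of GHRHR, the receptor gene for growth hormone-releasing hormone, was in WT replicate 2. That of GHRL, the ghrelin gene, was in KO replicate 2.

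Markers of the tissues that normally transcribe the locus were at or near 0 in the KO libraries. Of 17 pituitary markers 6 were listed, and all 6 stood at 0 in every KO library. WT replicate 2 held 122 counts of them, 96 of them on PITX1, WT replicate 3 held 2 and WT replicate 1 held 0. POU1F1, PRL and POMC, which define pituitary cell types, were not listed. Of 21 placental markers 6 were listed, and they summed to 5, 25 and 1 counts in WT and 5, 6 and 7 in KO. PAPPA accounted for 4, 22 and 0 of the WT counts and 4, 6 and 6 of the KO counts, and PSG5 had at most 1 count in any library. CSH1 and CSH2, the other placental genes of the cluster, were not listed. Of 16 exocrine markers 5 were listed, and 3 of these had a KO count. Those listed summed to 0 to 69 counts in WT and 16 to 25 in KO, with KRT19 and SPP1 the most abundant. Of the 14 connective tissue markers 12 were listed, and they summed to 107, 259 and 1665 counts in WT and 789, 760 and 746 in KO. OGN made up 1115 of the 2295 KO counts and 132 of the 2031 WT counts, and COL12A1, with 19, 35 and 522 WT reads, had 50, 57 and 43 KO reads.

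The receptors for the hormone were too shallow to be tested. GHR, the growth hormone receptor gene, had 0, 8 and 39 reads in WT replicates 1, 2 and 3, with 1, 0 and 7 KO reads. PRLR, the prolactin receptor gene, had 0, 11 and 11 in WT and 0, 2 and 0 in KO. JAK2, the receptor-bound kinase, had 0, 37 and 38 in WT and 7, 1 and 4 in KO. For these 3 genes the counts lay mostly in WT replicates 2 and 3, the libraries that held markers of other tissues, and the groups overlapped. STAT5A and STAT5B, the transcription factors downstream, had at most 4 counts in any library.

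Among the 21 receptor, JAK-STAT and downstream kinase genes, all listed, 6 were tested and none (0) passed in edgeR, in either direction. Over all tested genes 8.05% passed. At an unadjusted p under 0.05 the count was 3, all lower in KO, beside 14.6% of all tested genes, and DESeq2 called 2 lower, beside 9.33% of its genes. Without WT replicate 1, edgeR called 4 of the 8 genes then tested lower, beside 711 of all 3279 genes in that fit. SOS1, an exchange factor gene for RAS, was covered by 18, 68 and 57 WT reads and 23, 21 and 29 KO reads, a log2 fold change of −1.82 ± 0.54 (SE) with an edgeR adjusted p of 0.0655. STAT3, a transcription factor of cytokine signalling, had 4, 57 and 21 WT reads and 7, 8 and 13 KO reads, with a log2 fold change of −2.02 ± 0.65 (SE) and an edgeR adjusted p of 0.0845. The median log2 fold change of the 6 was −1.18, beside −0.14 over all tested genes. Of the other genes annotated in the deposited table to KEGG's Jak-STAT pathway, 79 in all, 23 were tested. Of these 0 passed in edgeR, beside 8.05% of all tested genes. At an unadjusted p under 0.05, 1 was higher in KO, beside 13.8% of all tested genes, and 3 were lower, beside 14.6%. DESeq2 called 3 of them lower and 0 higher, beside 9.33% and 8.34% of its genes.

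Feedback inhibitors of cytokine receptors gave the same count of 0 among 2 tested of 11 listed in edgeR, beside 8.05% of all tested genes. The count was 1 at an unadjusted p under 0.05, lower in KO as were 14.6% of all tested genes, and 1 by DESeq2, lower as were 9.33% of its genes. Without WT replicate 1, edgeR called 1 of 3 lower, beside 711 of all 3279 genes in that fit. PTPN2, a phosphatase gene that acts on JAK kinases, had 7, 16 and 26 WT reads and 4, 5 and 10 KO reads, with a log2 fold change of −2.27 ± 0.73 (SE) and an edgeR adjusted p of 0.083. PTPN11 had an edgeR adjusted p of 0.583. SOCS2, a target and inhibitor of growth hormone signalling, had 0, 15 and 1 counts in WT and 0 in each KO library. CISH, another such target, had 0, 2 and 1 in WT and 0, 1 and 0 in KO. SOCS3 had 0, 9 and 1 in WT and 5, 8 and 9 in KO. None of the 3 was deep enough to be tested.

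Genes known to respond to growth hormone or prolactin in islets and other tissues held 1 call. Of 29 such genes 21 were listed and 6 tested, and 1 (MEN1) was higher in KO, beside 5.04% of all tested genes called higher, and 0 were lower (0 at an unadjusted p under 0.05 and by DESeq2), beside 3.01%. MEN1 encodes menin, a tumour suppressor that restrains β-cell division and that prolactin signalling is known to lower in mouse islets. It rose from 0, 4 and 0 WT reads to 24, 24 and 26 KO reads, or from 5.33 ± 9.24 to 103 ± 4.77 CPM (SD, n = 3 each). Its log2 fold change was 3.56 ± 0.89 (SE), with an edgeR adjusted p of 0.045 (0.00628 to 0.751 over the alternatives). The call was lost when WT replicate 2 or 3 or a single KO library was left out, with the replicate number as a block (adjusted p 0.0617) and with the KO libraries summed, while the log2 fold change was 3.04 to 7.30 over the alternatives.

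CCND1, a cyclin gene of the G1 phase, had 11, 96 and 8 WT reads and 144, 131 and 148 KO reads (edgeR adjusted p 0.224). CCND2, the cyclin gene that prolactin is known to act on in β-cells, had 0, 12 and 30 WT reads and 14, 19 and 21 KO reads (edgeR adjusted p 0.868). IGF1R and BCL6 had edgeR adjusted p of 0.746 and 0.886. IGF1, the main liver target of growth hormone, was concentrated in WT replicate 3 with 208 counts, beside 0 and 5 in the other WT libraries and 1, 1 and 3 in KO. TPH1 and TPH2, the serotonin synthesis genes that rise in islets in pregnancy, were not listed and have no value here. DESeq2 called 2 of the 6 tested genes higher, beside 8.34% of all its genes. Without WT replicate 1, edgeR also called 2 of 6 higher, beside 816 of all 3279 genes in that fit. The median log2 fold change of the 6 was 0.82, beside −0.14 over all tested genes.

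**Figure D4:**
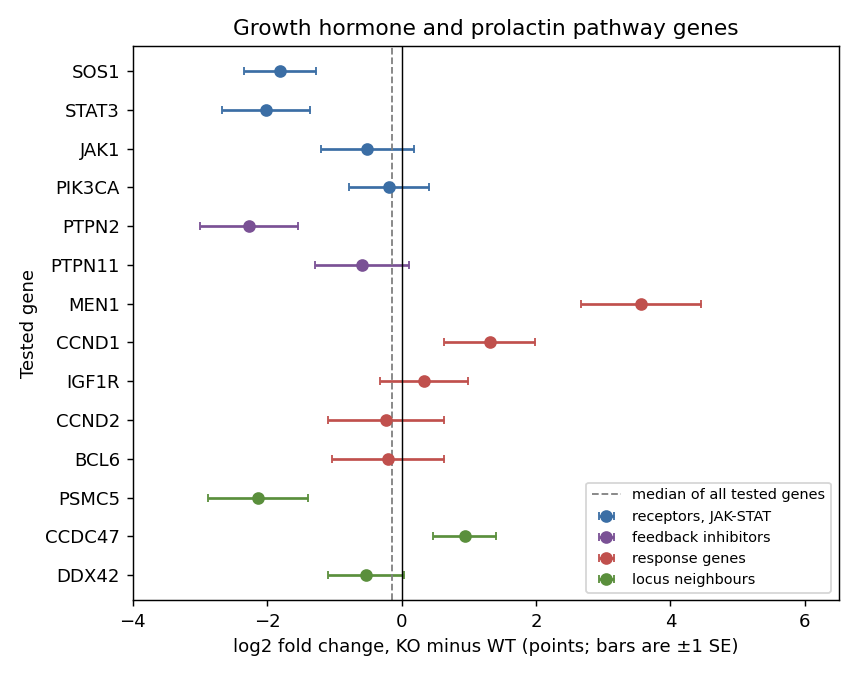
Log2 fold change, KO minus WT, of 14 of the 17 tested genes of the receptor and JAK-STAT, feedback inhibitor, response gene and locus neighbour lists, with bars of ±1 SE from the edgeR fit and a dashed line at the median of all tested genes (−0.14). MEN1, at 3.56, is the gene with an adjusted p under 0.05, and the other genes shown did not pass.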

How the data were processed

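The labels' protocols describe total islet RNA from which ribosomal RNA was removed with a kit, directional library preparation and paired-end sequencing. Among the tools in the submitters' processing notes are HTSeq 0.9.1, HISAT2 2.0.4, edgeR 3.16.5 and cutadapt 1.9.3, besides the build mm10, with no stated role. Raw counts per gene were used as the authors deposited them, unnormalized per the file headers. Another 6 per-sample columns, of normalized values, were not used, and a line with no identifier (1) was left out. The sample titles gave group and replicate number. The members and all gene lists were chosen with earlier results of these data known. Genes named follow a written rule: the members, fixed pathway genes, up to 4 tested genes per list with the smallest p, neighbours with at least 20 counts, the 6 genes most like GH1, and the 2 most abundant markers per tissue. Several genes that the rule covers are not reported here by name, though they count in their lists. BCL6, CPEB1 and NEFM were added after their values were seen.

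The fit across all genes used edgeR 4.0.16 (R 4.3.3): TMM scaling, the filterByExpr filter, a two-sided quasi-likelihood F test of genotype, and Benjamini-Hochberg adjustment over the 2560 tested genes at 0.05. Standard errors of log2 fold changes derive from the F statistic. The fit was also run on simulated counts with the same dispersion per gene in both groups. That run does not cover the unequal spread of the WT and KO libraries, and nothing is read from it. A count of 0 was taken to allow 3 counts. Alternatives were DESeq2 1.42.0, its size factors, library totals, sizes without genes over 1% of counts, other filters, leaving out each library, a replicate block, summing the KO libraries, and WT replicate 1 alone.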

Additional observations from a re-analysis of the deposited data

How the results depend on the processing

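GH1 was higher in KO in all 14 alternatives. Its log2 fold change was 8.85 and ran from 7.45 (WT replicate 1 alone against KO) to 10.52; with a library left out it was 8.54 to 10.52, the highest without WT replicate 1, which differed from 8.85 by more than the spread of log2 CPM over WT (1.58 SD). Scaled to EIF4G2 and DDX5 it was 7.97, on a scale that moved the median of all tested genes to −1.69 from −0.14; that median was 0.11 with DESeq2 size factors and 0.00 with library totals. The count of changed genes, 206, was 137 with the replicate number as a block, 0 with the KO libraries summed, 766 for WT replicate 1 alone, 447 with DESeq2, 439 with no filter on low counts and 385 for genes that average 5 CPM or more; with a library left out it ran from 3 to 1527. Of 17 pathway genes tested 1 was called, beside 8.05% of all tested genes. It was 2 with DESeq2 size factors, beside 212 of all genes, and 2 with library totals, beside 186. With the block it was 0, beside 137. DESeq2 called 6, beside 17.7% of its genes. Either other filter gave 3, out of 67 tested where no filter was used. With a library left out it was 0 to 10, the highest without WT replicate 1, where 46.6% of all genes were called. More pathway genes were tested under those filters and without WT replicate 1. The cause of these changes was not tested. Fits with WT replicate 1 alone or the KO libraries summed assume that the lone library varies like the other group. Libraries with the same replicate number did not deviate together (correlations −0.00216, −0.0149 and 0.0191). The KO libraries lay close together, so such correlations could not exclude a pairing. The numbers were not taken to pair the libraries in the main fit. With the block the GH1 log2 fold change was 9.19. For CSHL1, leaving out each WT library in turn was chosen after seeing the data, and the lower end of the KO interval was 2.06 to 6.17 times the WT floor, beside 6.61 with all 3. At the depth of WT replicate 1 alone, a count of 0 allows up to 83.6 CPM for CSHL1 and GH2.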
